A study of Homo sapiens with 16 samples.

Results

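The tricarboxylic acid (TCA) cycle and the enzymes that bring carbon into it were followed as a set of 34 named genes. All 34 were found by symbol among the 17738 genes of the deposited table, and all 34 passed a minimum value of 10 in at least 2 libraries, as did 16714 genes in all. The cells were H1, an established wild-type human embryonic stem cell line kept in E8, a defined medium with insulin, FGF2 and TGFb. RNA-seq of poly(A) RNA was made from 16 libraries in 8 groups of 2 after 24 h in E7, which is E8 lacking TGFb. The 4 media were E7 alone, E7 with 1.74 ng/mL TGFb, E7 with 100 ng/mL Activin A and E7 with 100 ng/mL NODAL. Cells in each medium received 3 mM 2-deoxyglucose (2DG) or none. All 8 groups therefore shared the basal medium and the line, so all comparisons describe 1 genetic background. Whether replicates came from separate cultures is not stated in the labels, and p-values here reflect only how far these samples spread.

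Pyruvate made by glycolysis enters mitochondria through the pyruvate carrier and is turned into acetyl-CoA by the pyruvate dehydrogenase complex or into oxaloacetate by pyruvate carboxylase. Citrate synthase joins acetyl-CoA to oxaloacetate, and the cycle then oxidises citrate back to oxaloacetate through 2-oxoglutarate, succinate, fumarate and malate, giving reduced cofactors for respiration and precursors for biosynthesis. Glucose is a main source of that pyruvate in human pluripotent cells, and 2DG is a glucose analogue that slows glycolysis. TGFb, Activin A and NODAL are related ligands that act through SMAD2 and SMAD3 and help to keep these cells pluripotent.

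The values are normalised read counts, that is reads assigned to a gene after division by the size factor of the library. Libraries held 14600479 to 17630329 reads, and transcripts of the mitochondrial genome took 5.46 to 6.69% of them. The replicates were not equally close. The chi-square of replicate counts over genes, per degree of freedom, was 57.3 in E7 with Activin A and 15.8 in E7 with Activin A and 2DG, against 1.6 to 10.8 in the other 6 groups. Replicate 1 of E7 with Activin A correlated best with replicate 2 of E7 (0.9804, against 0.9767 with its own replicate), and replicate 1 of E7 with Activin A and 2DG with replicate 2 of E7 with Activin A (0.988, against 0.9848). Whether these libraries were mixed or exchanged was not tested, and a mixture or exchange would change what the Activin A values stand for. The labels were kept, and counts for Activin A are also given with single libraries left out. The summed mesendoderm markers were 1769 and 1618 in the 2 libraries of E7 with Activin A, and 608 or lower in the 12 libraries of the other media. E7 replicate 2 held the highest value of 11 of the 34 genes and E7 with Activin A and 2DG replicate 2 the lowest value of 10. Pluripotency transcripts were high in every library, with 12 of the 12 listed markers tested and a summed value of 159655.9 to 193933.7. Summed markers of mesendoderm (6 of 11 analysed) ran from 201 to 1769 in the 8 libraries without 2DG and from 68.5 to 1528 in the 8 with it, and fibroblast markers (5 of 10 analysed) from 3907 to 5283 and from 2777 to 4119. Neuroectoderm markers (6 of 9 analysed) summed to 8554 to 10638 without and 8120.4 to 12244 with 2DG, and trophoblast markers (4 of 9 analysed) to 67.8 to 125.8 and 75.4 to 174.5. The other markers of these lists were not analysed here. In such bulk samples fewer cells of a type and less RNA per cell cannot be told apart.

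Sequences before the transcription starts, from RefSeq (GRCh38.p14), are shown for the 9 members that were called with 2DG in E7 or on average over the media and that carry a motif searched for. Of the 34 genes 31 had an entry, and the 250 bases before each start were searched on both strands for short binding motifs of factors linked to stress and to mitochondrial genes. The first stretch lies before ME1, cytosolic malic enzyme, at chr6:83431072-83431301 on the minus strand. Capitals mark the antioxidant response core TGACNNNGC, known as a binding site of NRF2, which was in the window of 5 of the 31 genes (GOT2, IDH1, IDH3G, ME1 and MPC1) and of 13.2% of all 27305 genes.
The sites of IDH1 (chr2:208255195-208255224, minus strand) and of MPC1, a pyruvate carrier subunit (chr6:166383036-166383065, minus strand, where the core reads the other way round), follow it.
ME1: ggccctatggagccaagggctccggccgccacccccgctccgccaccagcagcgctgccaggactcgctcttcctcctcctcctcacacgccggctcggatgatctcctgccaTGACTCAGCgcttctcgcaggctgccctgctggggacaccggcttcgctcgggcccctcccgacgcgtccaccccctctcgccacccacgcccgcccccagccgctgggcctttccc
IDH1: cccctctcgcTGACTCCGCccatcccacgg
MPC1: ctggccctgcGCCCTGTCAttggccgagag
Among these, ME1 rose and IDH1 and MPC1 fell with 2DG in E7. The next stretch lies before the most internal of the RefSeq starts of MPC2, the other pyruvate carrier subunit, at chr1:167936041-167936246 on the minus strand. The site that follows lies 110 bases before the start of SDHD, a succinate dehydrogenase anchor subunit, at chr11:112086753-112086782 on the plus strand. The last lies 38 bases before the start of SUCLA2, a succinyl-CoA ligase subunit, at chr13:48001292-48001321 on the minus strand. Capitals mark the site of NRF1 (GCGCA and GCGC with any 1 base between), a factor known for nuclear genes of mitochondrial proteins, which reads the other way round in SUCLA2.
MPC2: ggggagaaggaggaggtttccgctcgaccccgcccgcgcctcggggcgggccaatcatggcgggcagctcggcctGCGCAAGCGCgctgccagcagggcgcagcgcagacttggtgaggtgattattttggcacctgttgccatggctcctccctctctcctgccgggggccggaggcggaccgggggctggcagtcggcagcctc
SDHD: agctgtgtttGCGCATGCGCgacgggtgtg
SUCLA2: tgtcgcctgtGCGCCTGCGCgcggcgccga
This NRF1 motif was in the windows of 7 of the 31 genes (GLUD1, IDH3A, IDH3G, MPC2, SDHA, SDHD and SUCLA2) and of 6.2% of all genes. The core TGATGNAA, read by C/EBP and ATF factors such as ATF4, was in the window of 1 member, GOT1, cytosolic aspartate aminotransferase, and of 3.89% of all genes. It lies 198 bases before the GOT1 start at chr10:99430804-99430833 on the minus strand, where it reads the other way round.
GOT1: aattgcattggTTGCATCAttctcggcagc
The E-box CACGTG, the same on both strands and read by MYC and related factors, was in the window of 1 member, PDHB (chr3:58434051-58434080, minus strand), and of 7.73% of all genes. The estrogen-related receptor site AAGGTCA was in those of SDHB (chr1:17054238-17054267, minus strand) and SUCLA2 (chr13:48001438-48001467, minus strand), and of 4.22% of all genes. Capitals mark these letters.
PDHB: acaccgaccaggCACGTGtgcccagcgtgc
SDHB: ccctttctgagAAGGTCAcgggggaagcca
SUCLA2, second site: gcccagttccaAAGGTCAaagcttgctccg
None of the motifs searched was in the window of PCK2, which says only that these letters are not in those 250 bases. A match of letters is a description of the sequence and no measurement of binding.

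Transcript levels per length, as mean normalised reads per kilobase of the principal transcript over the 16 libraries, spanned a wide range. IDH1, the cytosolic NADP-dependent isocitrate dehydrogenase, had the highest level with 5154.5. The malate dehydrogenases MDH1 (2285) and MDH2 (1785) and the mitochondrial aspartate aminotransferase GOT2 (1630.2) came next, and citrate synthase CS had 1135. The lowest were MPC2 (145.7), the catalytic subunit IDH3A of NAD-dependent isocitrate dehydrogenase (97.8), ME1 (77.7) and pyruvate carboxylase PC (52.8). The principal transcript of SDHC is 13566 bases long, the longest of the set, so its level per kilobase (148.2) depends on that choice of transcript. Of the 34 genes 13 have exons that overlap another gene and 11 have a processed or other pseudogene in the annotation. IDH3A overlaps ACSBG1 over 63.2% of its exon bases. The strand setting of the counting is not given in the sources used here, so IDH3A values are uncertain. Smaller overlaps on the opposite strand were 28.9% for PDHA1 and 22.3% for GOT1. SDHD was overlapped over 22.2% on its own strand, which a strand setting would not separate. The values of PDHA1, GOT1 and SDHD are less certain for that reason.

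**Figure D1:**
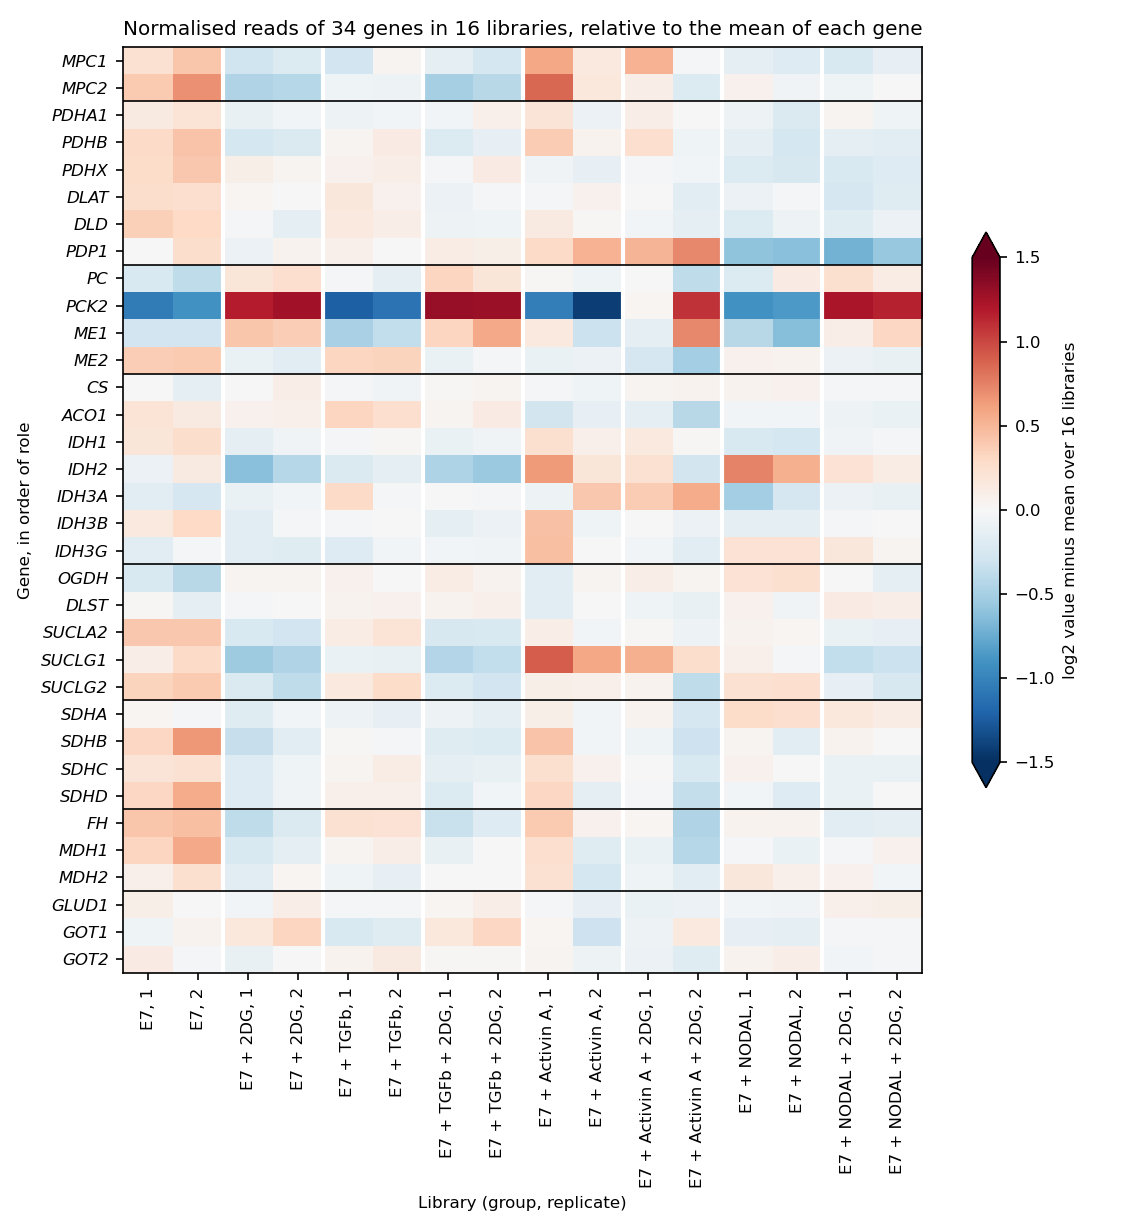
Each row is a gene and each column a library. The colour is log2 of the normalised count minus that gene's mean log2 value over the 16 libraries, on a scale from -1.5 to 1.5. PCK2 is high in the 8 columns with 2DG, from 1642 to 3991 normalised counts, and the 2 Activin A replicates look less alike than those of the other media.

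In E7 medium, 2DG raised PCK2 mRNA 4.58-fold, also raised ME1, PC and OGDH, and lowered 17 other members. These lay at pyruvate entry, at IDH1 and IDH2, between succinyl-CoA and malate, and at MDH1 and ME2. Among those not called were CS, ACO1, the IDH3 subunits, DLST, PDHA1 and SDHA. Genes were called at an adjusted p under 0.05 in limma, with Benjamini-Hochberg adjustment over the 16714 genes. The 21 called members were 61.8% of the set, where 29.4% of all genes were called (14.6% higher and 14.8% lower). As the members were chosen with earlier results of these data known, this and the like comparisons below are a description. The median log2 fold change of the 34 members was -0.26, against 0 over all genes. E7 replicate 2 weighs on this count: 9 members were called without it, beside 9.49% of all genes, and 11 without E7 with 2DG replicate 1. The 9 members called under each of the 25 alternatives were PCK2, MPC2, PDHB, DLD, ME2, SUCLA2, SUCLG1, SUCLG2 and FH. Across genes, longer transcripts had more positive log2 fold changes in this contrast (Spearman 0.34 over all genes, 0.54 over the members, genes not being independent). With that length trend removed the count was again 21, of which 19 were shared. Where a count under an alternative stands without the share of all genes, it shows only how the count depended on that setting.

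PCK2 (chr14:24094053-24110598, plus strand, hg38), the mitochondrial phosphoenolpyruvate carboxykinase that draws oxaloacetate out of the cycle, had 779 and 859.6 normalised counts in E7. With 2DG it had 3642 and 3864, far above both control libraries. The log2 fold change was 2.19 (SE 0.23, limma adjusted p = 0.00016). ME1 (chr6:83210389-83431071, minus strand), which turns malate into pyruvate in the cytosol and makes NADPH, had 206 and 206 in E7 and 337 and 325 with 2DG, a log2 fold change of 0.68 (SE 0.23, limma adjusted p = 0.037). PC, which makes oxaloacetate from pyruvate, had 188 and 168.5, and with 2DG 248 and 261. Its log2 fold change was 0.51 (SE 0.15, limma adjusted p = 0.024). In all of these the control and 2DG libraries did not overlap. Here and below, separation of 2 libraries from 2 describes genes already picked and is no further test. ME2, the mitochondrial NAD-linked malic enzyme, moved the other way. It had 2040.2 and 2069 in E7 and 1469 and 1413 with 2DG, a log2 fold change of -0.51 (SE 0.09, limma adjusted p = 0.0017).

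Both subunits of the mitochondrial pyruvate carrier fell. MPC2 (chr1:167916729-167937040, minus strand) had 403 and 492 in E7 and 224 and 227 with 2DG, so that both treated libraries lay well below both controls. Its log2 fold change was -0.98 (SE 0.19, limma adjusted p = 0.0024), the lowest of the 34. MPC1 fell by 0.57 on the log2 scale (SE 0.18, limma adjusted p = 0.034), from 337 and 384 to 234 and 250.1. Of the 6 genes of the pyruvate dehydrogenase complex, 4 fell. PDHB, the beta subunit of its E1 enzyme, had 2413 and 2647 in E7 and 1646 and 1699.7 with 2DG, without overlap and with a log2 fold change of -0.59 (SE 0.12, limma adjusted p = 0.0036). DLD, the E3 dihydrolipoyl dehydrogenase that also serves the 2-oxoglutarate complex, fell by 0.41 (SE 0.09, limma adjusted p = 0.0044). The E2 core subunit DLAT and the E3-binding protein PDHX fell by 0.25 and 0.27. The E1 alpha subunit PDHA1 (-0.25, limma adjusted p = 0.078) and the activating phosphatase PDP1 (-0.15, limma adjusted p = 0.36) were not called.

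Of the 7 genes between citrate and 2-oxoglutarate, 2 fell and none rose. Citrate synthase CS (0.12), cytosolic aconitase ACO1 (-0.10), IDH3A (0.14) and the regulatory subunits IDH3B (-0.32) and IDH3G (-0.07) were not called. DLST, the E2 subunit of the 2-oxoglutarate complex, was not called either (0.06). The NADP-dependent isocitrate dehydrogenases were both lower, IDH1 by 0.32 (limma adjusted p = 0.013) and the mitochondrial IDH2 by 0.55 (limma adjusted p = 0.028). OGDH (chr7:44606572-44709066, plus strand), the E1 enzyme that oxidises 2-oxoglutarate, rose. It had 1418 and 1251 in E7 and 1709.9 and 1714 with 2DG, a log2 fold change of 0.36 (SE 0.10, limma adjusted p = 0.013). Those E7 values of OGDH were the lowest of the 16 libraries.

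All 3 subunits of succinyl-CoA ligase, which turns succinyl-CoA into succinate, were lower. SUCLA2 (chr13:47745736-48037968, minus strand), the ATP-forming beta subunit, had 2357 and 2347.5 in E7 and 1512.5 and 1452 with 2DG, a log2 fold change of -0.67 (SE 0.08, limma adjusted p = 3e-04). The shared alpha subunit SUCLG1 (chr2:84423523-84460045, minus strand) had 1234 and 1406, and with 2DG 797 and 843 (log2 -0.68, limma adjusted p = 0.0017). The GTP-forming beta subunit SUCLG2 had 1538 and 1611, and with 2DG 1054 and 942 (log2 -0.66, limma adjusted p = 0.0023). In each of the 3 the treated libraries lay below both controls. Of the 4 succinate dehydrogenase subunits, the iron-sulphur subunit SDHB fell by 0.74 (SE 0.15, limma adjusted p = 0.0038), SDHD by 0.56 and SDHC by 0.34, both membrane anchors. SDHA, the flavoprotein subunit, had 1491 and 1436 in E7 and 1294 and 1428 with 2DG (limma adjusted p = 0.46). Fumarase FH (chr1:241497603-241519761, minus strand) had 1709.9 and 1763 in E7 and 984 and 1103 with 2DG. Its libraries did not overlap, and the log2 fold change was -0.74 (SE 0.14, limma adjusted p = 0.0025). Cytosolic malate dehydrogenase MDH1 fell by 0.63 (SE 0.14, limma adjusted p = 0.0053), and its mitochondrial partner MDH2 had -0.23 (limma adjusted p = 0.20). GLUD1, GOT1 and GOT2, which link the cycle to glutamate and aspartate, were not called. By compartment, 3 of the 29 mitochondrial members were higher and 15 lower, and of the 5 cytosolic members 1 was higher and 2 were lower.

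**Figure D2:**
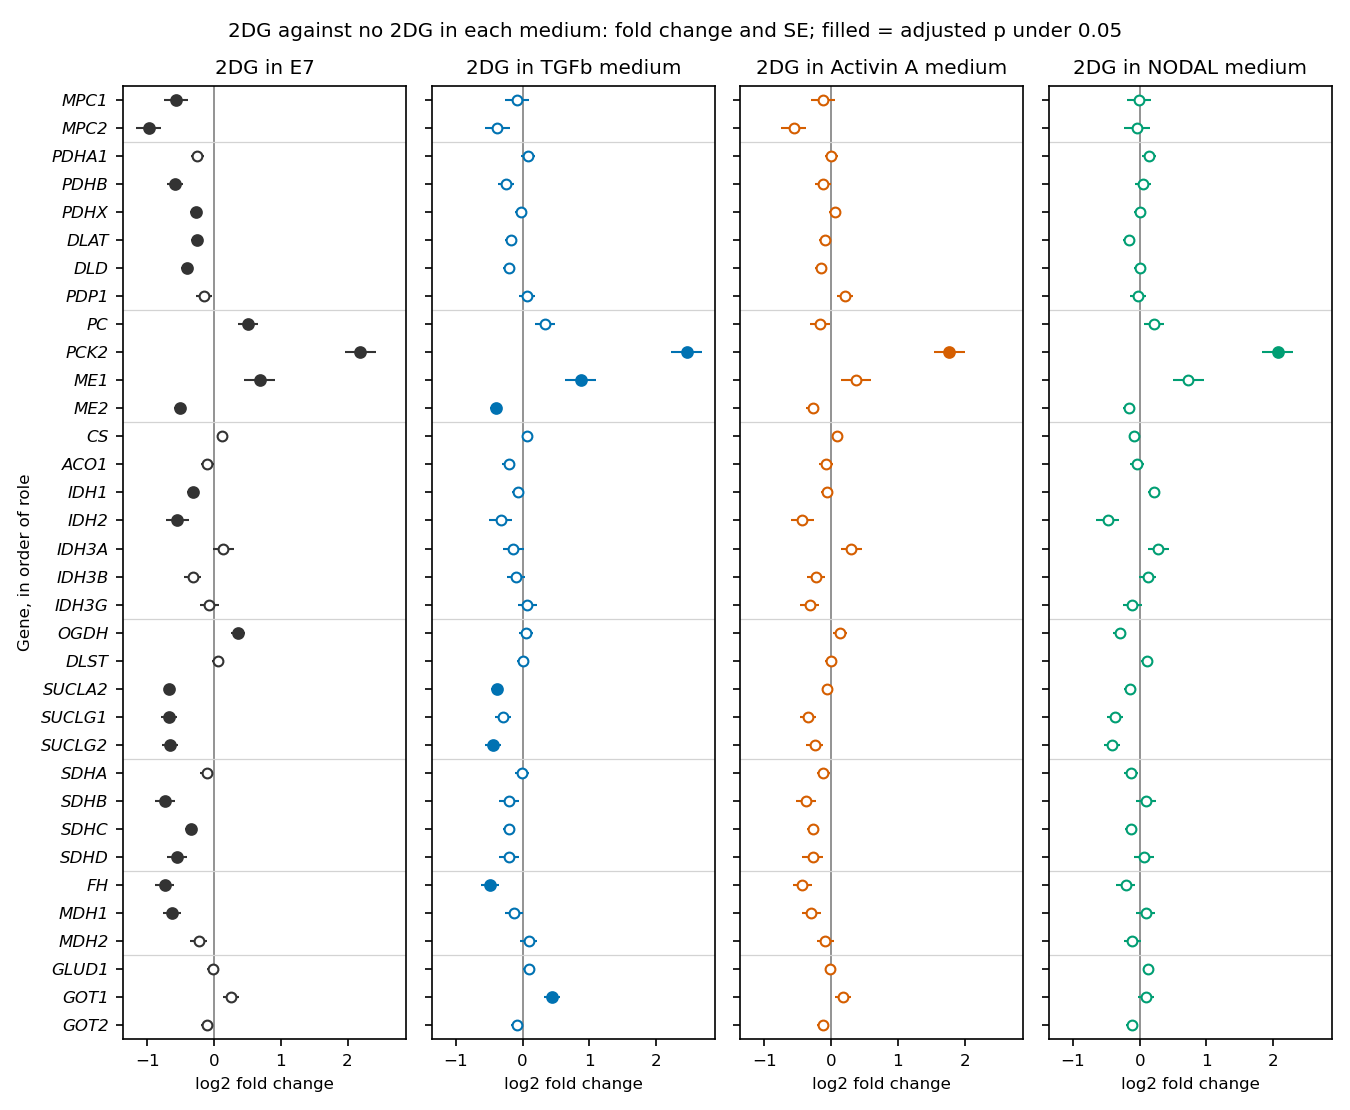
For each gene the points give the log2 fold change with 2DG in each of the 4 media and the bars its standard error, with filled points at an adjusted p under 0.05. PCK2 stands at 1.77 to 2.46 in all 4 media, and most filled points below 0 belong to E7.

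The other media gave fewer calls. In TGFb medium 7 members were called (3 higher, 4 lower), beside 9.84% of all genes (5.47% higher, 4.37% lower). PCK2 had 692.5 and 748 without 2DG and 3991 and 3953 with it, a log2 fold change of 2.46 (limma adjusted p = 5.4e-05). ME1 rose by 0.87 (limma adjusted p = 0.029) and GOT1 by 0.44 (limma adjusted p = 0.033). ME2 (-0.40), SUCLA2 (-0.39), SUCLG2 (-0.45) and FH (-0.49) were lower. With any single library of the 4 with TGFb left out PCK2 was the member called, and with any single NODAL library left out 4 members were. Without the 4 Activin A libraries 14 were called, beside 24.9% of all genes.

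In Activin A medium and in NODAL medium PCK2 was the member called, beside 1.7% of all genes (1.48% higher, 0.221% lower) and 5.88% (3.11% higher, 2.76% lower). With Activin A it had 789 and 608 without 2DG and 1642 and 3412 with it, so that its 2 treated replicates lay far apart, both above the controls (log2 fold change 1.77, limma adjusted p = 0.0033). With NODAL it had 859 and 888 without 2DG and 3759 and 3587 with it (log2 fold change 2.07, limma adjusted p = 0.00028). The Activin A count depended on its replicates. It rose without E7 with Activin A replicate 2, and without E7 with Activin A and 2DG replicate 1. Without the latter library the log2 fold changes included FH (-0.67), IDH2 (-0.69) and ME1 (0.80). The share of all genes under these settings is not given, so the rise is no result about the members. In NODAL medium 7 were called with either replicate of E7 with Activin A left out, 3 with either of E7 with Activin A and 2DG left out, and 7 without all 4. With the length trend removed 6 were called there.

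The average over the 4 media called 18 members (4 higher, 14 lower), beside 38.6% of all genes (19.2% higher, 19.4% lower), and 17 of the 18 were called under each of 24 alternatives. The exception was PC (0.23, limma adjusted p = 0.033). The higher members were PCK2 (2.12, SE 0.11), ME1 (0.66, SE 0.11), GOT1 (0.24, SE 0.06) and PC. Among the lower were MPC2 (-0.49, SE 0.09), FH (-0.47, SE 0.07), IDH2 (-0.45, SE 0.09), SUCLG2 (-0.44, SE 0.06), SUCLG1 (-0.42, SE 0.06) and ME2 (-0.34, SE 0.05). The median was -0.11, against 0 over all genes. Over all 16 libraries, 4 of the 34 members (1 higher, 3 lower) did not overlap between the 8 with 2DG and the 8 without, as did 3.37% of all genes tested (2.03% higher, 1.34% lower). PCK2 ranged from 608 to 888 without and from 1642 to 3991 with 2DG. FH ranged from 1328 to 1763 without and from 940.3 to 1312 with, and SUCLG2 from 1294 to 1611 without and from 938 to 1273 with. SDHC was the other, at 2002.5 to 2358 without and 1709 to 1989 with. In FH, SUCLG2 and SDHC the gap between the 2 sets was small beside their ranges. OGDH was called in E7 but had 0.06 on average (limma adjusted p = 0.34).

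**Figure D3:**
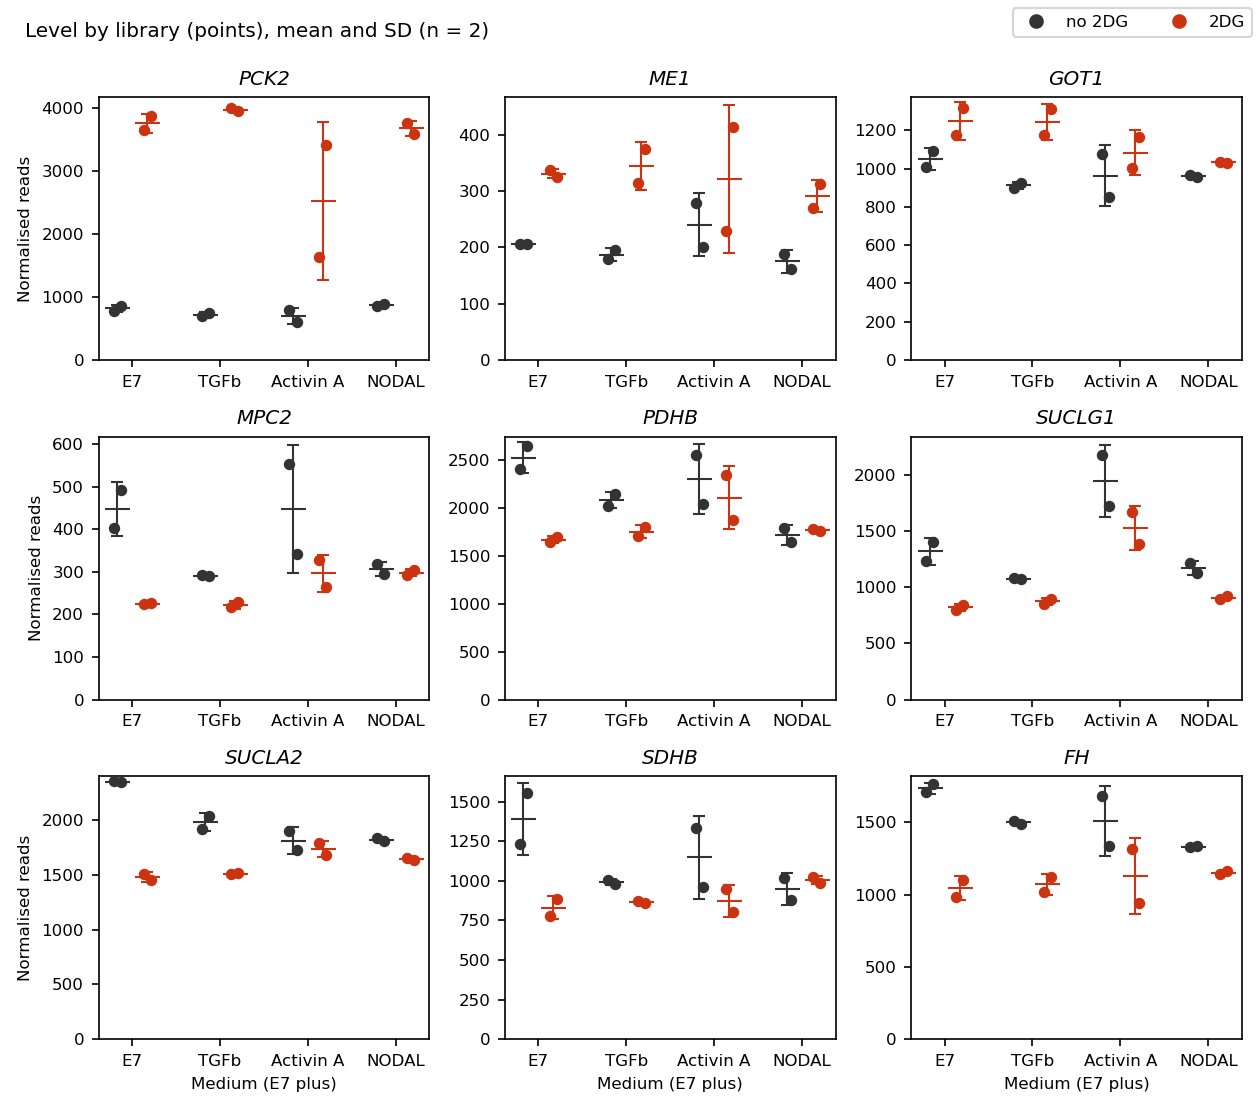
Normalised counts per library (points) with the mean and SD of each group (n = 2) are shown for PCK2, ME1, GOT1, MPC2, PDHB, SUCLG1, SUCLA2, SDHB and FH in the 4 media without and with 2DG, on axes from 0. The PCK2 points with 2DG lie at 1642 or above and those without at 888 or below, while the SDHB and PDHB points separate in E7 and overlap in NODAL medium.

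The ratio of related enzymes or subunits changed with 2DG in 4 of the 6 pairs compared. A changed ratio need not mean opposite directions: in E7 both MPC1 and MPC2 fell, as did both IDH1 and IDH2. For each pair the log2 ratio was compared by an exact two-sided permutation of the 2DG labels within each medium. Its 1296 arrangements allow no p below 0.0015, and adjustment was over the 6 pairs. The ratio of mitochondrial ME2 to cytosolic ME1 ranged from 2.40 to 3.46 in log2 without 2DG and from 1.42 to 2.54 with it. Its mean change was -1.0 (exact permutation adjusted p = 0.0046), lower in all 4 media by 0.66 to 1.27. The ratio of GOT2 to GOT1 changed by -0.35 (exact permutation adjusted p = 0.0046), with -0.35 in E7, -0.52 with TGFb, -0.29 with Activin A and -0.22 with NODAL. The ratio of IDH2 to IDH1 changed by -0.38 (exact permutation adjusted p = 0.0046), most in NODAL medium (-0.69). The ratio of MPC2 to MPC1 changed by -0.29 (exact permutation adjusted p = 0.0046), with -0.03 in NODAL medium. In these 4 pairs the mean of each medium moved in 1 direction. The ratio of MDH2 to MDH1 did not pass (0.16, exact permutation adjusted p = 0.068), being higher with 2DG in 3 media and lower with NODAL (-0.19). The ratio of SUCLG2 to SUCLA2 did not pass either (-0.13, exact permutation adjusted p = 0.056). These tests use ratios within a library, so a size factor cancels out of them, apart from the added 1.

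**Figure D4:**
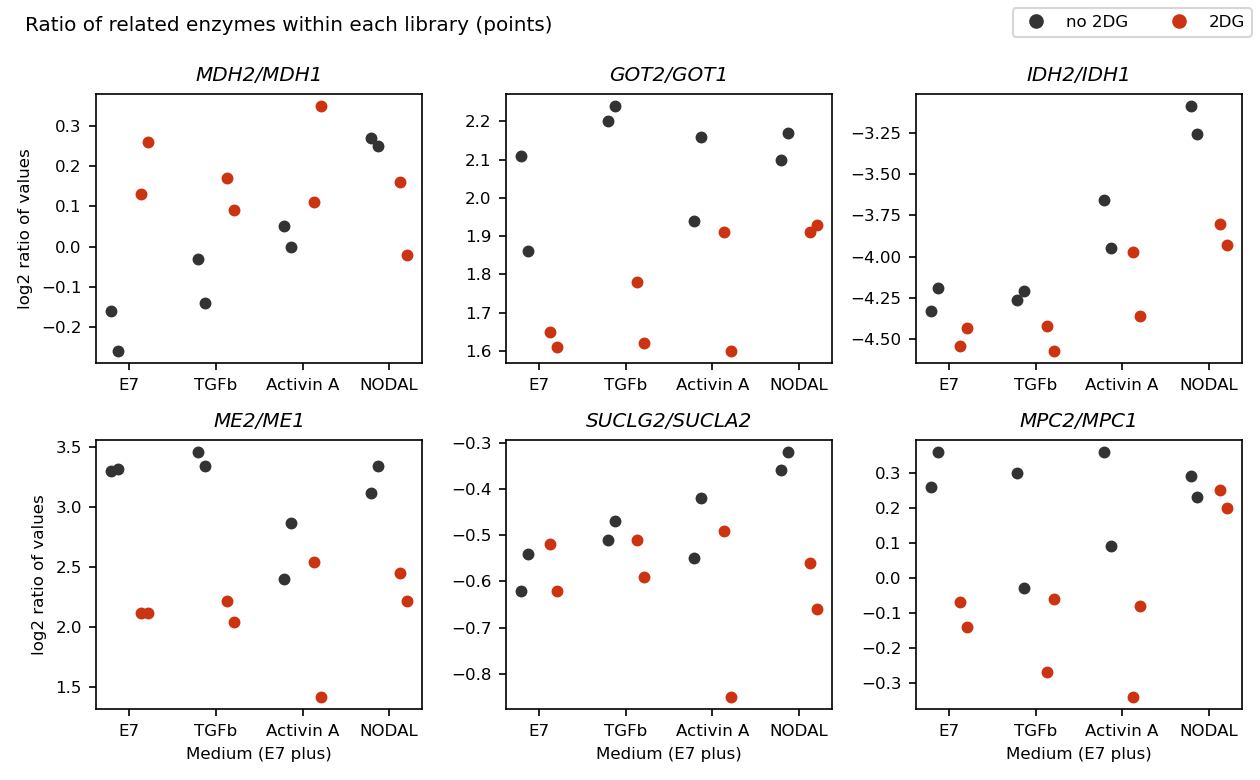
Log2 ratios of 6 enzyme pairs are plotted per library for the 4 media without and with 2DG. The ME2 to ME1 points fall from 2.40 to 3.46 without 2DG to 1.42 to 2.54 with it, and the MDH2 to MDH1 points rise in 3 media and fall in NODAL medium.

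Against the E7 libraries, NODAL called all 6 genes of the pyruvate dehydrogenase complex lower and OGDH and IDH2 higher. It called 14 members (2 higher, 12 lower), beside 21.5% of all genes (10.6% higher, 10.9% lower), with a median log2 fold change of -0.22 against 0.01 over all genes. This comparison uses the same 2 E7 libraries as that of 2DG in E7 and as those of the other ligands. PDP1 (chr8:93857807-93926066, plus strand), which removes the inhibiting phosphate from the complex, had 747 and 896 in E7 and 493 and 484 with NODAL. Both NODAL libraries lay far below both E7 libraries, and the log2 fold change was -0.74 (SE 0.12, limma adjusted p = 0.0015). PDHX, which tethers E3 to the core, had 1176 and 1289 in E7 and 842 and 821 with NODAL, a log2 fold change of -0.57 (limma adjusted p = 0.0013). PDHB (-0.56), DLD (-0.46), DLAT (-0.32) and PDHA1 (-0.31, limma adjusted p = 0.042) were the rest of the complex. Against the same E7 libraries these 6 genes also had negative log2 fold changes with 2DG, TGFb and Activin A, not all called. The exception was PDP1 with Activin A (0.28).

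OGDH had 1418 and 1251 in E7 and 1939.5 and 1962 with NODAL, a log2 fold change of 0.55 (limma adjusted p = 0.0023). The E7 values were the lowest of the 16 libraries. Against them OGDH was also higher with 2DG (0.36), and with TGFb (0.35) and Activin A (0.26), where it was not called. IDH2 (chr15:90083045-90102504, minus strand) had 704 and 822 in E7 and 1255 and 1085 with NODAL (0.62, limma adjusted p = 0.022), while IDH1 (chr2:208236227-208266074, minus strand) had 14177 and 15032 in E7 and 10685 and 10412 with NODAL (-0.47, limma adjusted p = 0.0031). The 2 NADP-dependent isocitrate dehydrogenases thus went in opposite directions, each without overlap of the libraries. SDHB (-0.55), SDHD (-0.55), MDH1 (-0.51), SUCLA2 (-0.37) and ME2 (-0.32) were also lower.

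Scaling libraries to the same total moved the median of all genes for NODAL in E7 to 0.13 and that of the members to -0.10. It called 12 members, 5 higher and 7 lower, of which 9 were shared. CS (0.26), IDH3G (0.44) and SDHA (0.39) joined the higher ones, and DLAT, PDHA1, ME2, SDHB and MDH1 were no longer called. On either scaling PDP1, PDHX, PDHB, DLD, IDH1, SUCLA2 and SDHD were lower and IDH2 and OGDH higher. Without E7 replicate 2, 5 members were called (PDHX, DLD, PDP1, IDH1 and OGDH). Also 5 were called without E7 with NODAL replicate 2, and 8 without its replicate 1, while without the 4 Activin A libraries 22 were, beside 39.2% of all genes. The same 5 genes, PDHX, DLD, PDP1, IDH1 and OGDH, were called under all 25 alternatives. NODAL also raised the mesendoderm markers MIXL1 and GSC (2 of 6 called, list median 0.53) and lowered 5 of the 12 pluripotency markers. ZIC1 of neuroectoderm rose (0.29), KRT7 of trophoblast fell (-0.79), and no fibroblast marker was called. The part of these markers in the result was not tested.

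Activin A in E7 called 5 members (1 higher, 4 lower), beside 10% of all genes (5.28% higher, 4.74% lower), and the members' median was -0.09. SUCLG1 had 1234 and 1406 in E7 and 2174 and 1720.3 with Activin A, above both controls (log2 fold change 0.55, limma adjusted p = 0.010). ME2 had 2040.2 and 2069 in E7 and 1478.5 and 1480.2 with Activin A (-0.47, limma adjusted p = 0.0044), and it was the call kept under all 24 alternatives. PDHX (-0.43), ACO1 (-0.36) and SUCLA2 (-0.37) were also lower. Without E7 with Activin A replicate 1, 14 members were called, among them MDH1 (-0.63), SDHD (-0.57) and SDHB (-0.52), and with either E7 library left out 2 were. With the length trend removed 10 were called. Of the 6 mesendoderm markers 5 rose with Activin A (list median 1.92), and 4 of the 12 pluripotency markers fell, among them DNMT3B (-0.70) and LIN28A (-0.51). The neuroectoderm marker MAP2 (-2.39) and the trophoblast marker KRT7 (-1.5) fell, and no fibroblast marker was called. The part of these markers in the result was not tested.

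TGFb in E7 called 0 members with limma and 0 with edgeR, as it called 0% of all genes. At an unadjusted p under 0.05 there were 14 members and 3771 genes. The smallest adjusted p of a member was 0.15. The log2 fold change was negative in 27 of the 34 members, with a median of -0.19 against -0.02 over all genes. The medians against the same E7 libraries were -0.26 with 2DG and -0.22 with NODAL. The lowest log2 fold change was that of MPC2, which had 292 and 290.4 with TGFb against 403 and 492 in E7 (log2 -0.61, 95% interval -1.01 to -0.21), and the highest that of OGDH, with 1734.5 and 1667 against 1418 and 1251 (log2 0.35, interval 0.15 to 0.56). In both the libraries did not overlap. Over the members the log2 fold change and transcript length had a Spearman correlation of 0.72, and over all genes 0.47. The count was 17 without the 4 Activin A libraries, beside 26.7% of all genes, and 13 with either replicate of E7 with Activin A left out.

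**Figure D5:**
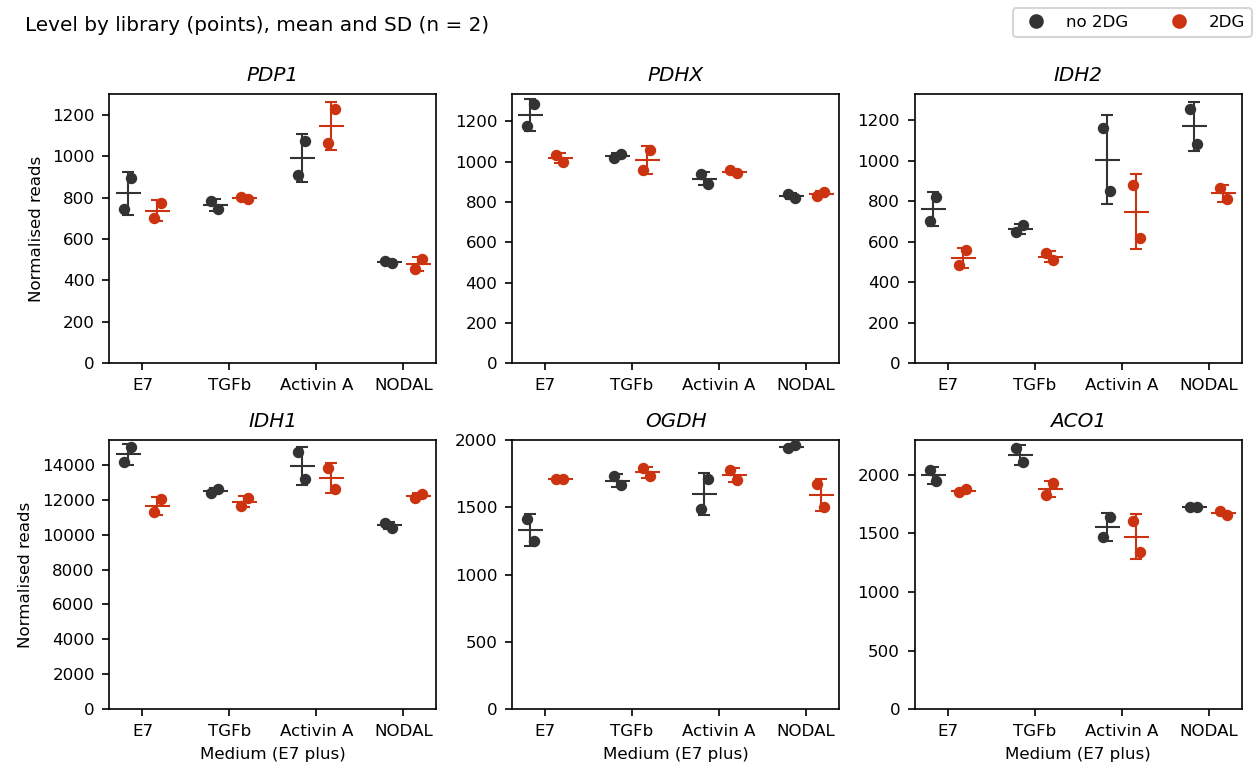
Normalised counts per library (points) with the mean and SD of each group (n = 2) are shown for PDP1, PDHX, IDH2, IDH1, OGDH and ACO1 in the 4 media without and with 2DG, on axes from 0. PDP1 lies between 457 and 506 in the 4 NODAL libraries and between 912 and 1228 in the 4 Activin A libraries.

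Under 2DG the ligands called few members, and at most 7.52% of all genes in any comparison. These 3 comparisons share the 2 libraries of E7 with 2DG. Activin A called 3 (2 higher, 1 lower), beside 7.52% of all genes (4.27% higher, 3.25% lower). SUCLG1 had 797 and 843 in E7 with 2DG and 1666.5 and 1389.5 with Activin A added, a log2 fold change of 0.89 (SE 0.12, limma adjusted p = 0.00029), and it kept its call under all 24 alternatives. PDP1 had 701 and 775 in E7 with 2DG and 1064 and 1228 with Activin A (0.63, limma adjusted p = 0.0043). ACO1, the cytosolic aconitase that also binds iron-responsive RNA elements, was lower (-0.35, limma adjusted p = 0.043). Leaving out E7 with 2DG replicate 1 gave 1 called, E7 with Activin A and 2DG replicate 2 gave 6, and E7 with Activin A replicates 1 and 2, each in turn, gave 8 and 9. With the length trend removed 7 were called, all higher. The 6 mesendoderm markers had a median of 2.75 here with 5 higher, and 4 of the 12 pluripotency markers were lower, among them DNMT3B (-0.87). Of the 6 neuroectoderm markers NES was higher (0.62) and MAP2 lower (-1.62), while KRT7 of trophoblast was lower (-1.60) and PDGFRB of fibroblasts higher (1.61). The part of these markers in the result was not tested.

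NODAL under 2DG called 1 member, PDP1, beside 0.634% of all genes (0.425% higher, 0.209% lower). It had 457 and 506 with NODAL and 2DG against 701 and 775 in E7 with 2DG, below both (log2 -0.62, 95% interval -0.87 to -0.36, limma adjusted p = 0.035). That call was lost under 10 of the 25 alternatives, each of which left out 1 library of E7 with 2DG or of the TGFb or NODAL media. The count was 3 and 4 without replicate 1 or 2 of E7 with Activin A and 2 without either of E7 with Activin A and 2DG. PDP1 thus had its 4 lowest values in the 4 NODAL libraries and its 4 highest in the 4 Activin A libraries. Without 2DG, Activin A did not call PDP1 (0.28, limma adjusted p = 0.18). The lowest Activin A value, 912 in replicate 1 of E7 with Activin A, lay near the 896 of E7 replicate 2. Without the 4 Activin A libraries 7 members were called for NODAL under 2DG, beside 17.9% of all genes, and with the length trend removed 3 were. TGFb under 2DG called 0 members with limma and 0 with edgeR, 0% of all genes. At an unadjusted p under 0.05 it had 0 members and 273 genes, and its members' median was 0.04.

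The interaction, the log2 response to 2DG in a ligand medium less that in E7, tests whether the response differed. NODAL called 3 members, beside 1.87% of all genes (0.987% higher, 0.885% lower), with IDH1 and SUCLA2 positive and OGDH negative. IDH1 fell with 2DG in E7, whereas with NODAL it had 10685 and 10412 without 2DG and 12089.5 and 12335 with it, an interaction of 0.54 (SE 0.12, limma adjusted p = 0.047). OGDH rose with 2DG in E7 and had 1939.5 and 1962 in NODAL medium and 1676 and 1506.5 with 2DG (interaction -0.66, SE 0.14, limma adjusted p = 0.040). Neither response to 2DG within NODAL medium was called (IDH1 0.21, limma adjusted p = 0.17, and OGDH -0.3, limma adjusted p = 0.088). SUCLA2 fell with 2DG in E7 and was not called in NODAL medium (-0.15, limma adjusted p = 0.33), where it had 1841 and 1809 without and 1661 and 1637 with 2DG (interaction 0.52, SE 0.12, limma adjusted p = 0.045).

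No call of these 3 was kept under all alternatives. Without E7 replicate 2 the limma adjusted p was 0.22 for IDH1 and 0.21 for OGDH and SUCLA2, and 0 members were called. The count was also 0 with any library of E7 with 2DG or of the TGFb or NODAL media left out. It was 13 with either replicate of E7 with Activin A left out, 6 with either of E7 with Activin A and 2DG left out, and 15 without all 4. Scaling to the same total left OGDH, negative, as the 1 called. The members SDHB (0.83, limma adjusted p = 0.054), PDHB (0.64, limma adjusted p = 0.056) and MDH1 (0.72, limma adjusted p = 0.058) lay just beyond the threshold. Of the 34 members 26 had a positive interaction and 8 a negative one, with a median of 0.18 against -0.01 over all genes. The interaction also followed transcript length, with a Spearman correlation of -0.43 over all genes and -0.51 over the members, and with that trend removed 9 members were called, 8 positive and 1 negative. TGFb called 0 members by limma and 0 by edgeR, 0% of all genes, with 7 members and 2023 genes at an unadjusted p under 0.05, and 2 and 3 were called without replicate 1 or 2 of E7 with Activin A. Activin A called 0 members by limma and 0 by edgeR, beside 0.0419% of all genes, with 5 members at an unadjusted p under 0.05, and 7 and 1 were called without replicate 1 or 2 of E7 with Activin A.

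The other genes of these pathways were taken as lists, which were drawn up with earlier results of these data known, so their counts are a description. For 2DG in E7 they were as follows. Among 8 regulators and lipoate enzymes of pyruvate dehydrogenase 2 rose and 0 fell. The phosphatase regulatory subunit PDPR had 797 and 562 in E7 and 1563 and 1327 with 2DG (log2 1.10, limma adjusted p = 0.0056). The kinase PDK2 rose by 0.60 (limma adjusted p = 0.018), and PDK1 (-0.14) and PDK3 (-0.01) were not called. Of 9 other cycle and bypass enzymes 2 rose and 2 fell, among them OXCT1, which activates ketone bodies (-0.46, limma adjusted p = 0.0018). Of the 4 assembly factors of succinate dehydrogenase, SDHAF3 fell by 0.80 and SDHAF4 by 0.95, and none rose (list median -0.69). Of 8 mitochondrial carboxylate and amino acid carriers 0 rose and 1 fell.

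Of 8 glutamine and aminotransferase enzymes 3 rose and 2 fell, with PSAT1 (1.52) and GPT2 (1.44) higher. Of 6 cytosolic citrate and lactate enzymes 1 rose and 3 fell. LDHA, which turns pyruvate into lactate, had 12927 and 13437 in E7 and 7352 and 7988 with 2DG (log2 -0.78, limma adjusted p = 0.0018). Of 14 genes of the amino acid response driven by ATF4, 13 rose and 0 fell, with a median of 1.84. ATF4 itself, a factor known to be controlled by translation, had 0.08. Of 10 targets of NRF2, 4 rose and 0 fell. Of the 13 transcripts of the mitochondrial genome, 2 rose and 0 fell, with a median of 0.06, and of 15 regulators of mitochondrial biogenesis 3 rose and 4 fell. Of 12 pluripotency markers 2 rose and 3 fell, among them POU5F1 (-0.46) and NANOG (-0.47), and 3 of 6 mesendoderm and 2 of 5 fibroblast markers fell. Of 6 neuroectoderm markers 1 rose, and of 3 trophoblast markers 0 were called. Histone transcripts that lack poly(A), of which 5 were analysed and 4 passed the minimum value, had a summed value over those 5 of 119.7 to 202.6 in the libraries without 2DG and 70.9 to 127.0 in those with it. The part of these marker and RNA values in the members' results was not tested.

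With NODAL in E7, PDK2 rose (0.66, limma adjusted p = 0.016), LDHB fell (-0.59) and ATF4 fell (-0.59). Of the 14 genes of the ATF4 list 0 rose and 1 fell there, while PCK2 had 859 and 888 with NODAL against 779 and 859.6 in E7. PDK3 fell with 2DG in NODAL medium (-0.67, limma adjusted p = 0.026). Averaged over the 4 media, all 14 genes of the ATF4 list rose with 2DG (median 1.75). Their summed value was lowest among the 8 libraries with 2DG in E7 with Activin A and 2DG replicate 1, at 46311, which was also the lowest of the 8 in PCK2.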

How the data were processed

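RNA-seq of 16 H1 libraries was read as 1 table. The deposited values are a signal: read counts per gene divided by a size factor per library, as the authors supplied them. Per the submitters' processing notes Trimmomatic 0.36, STAR, featureCounts 1.5.3, DESeq2 1.26.0 and hg38 were named, without roles. The strand setting and annotation are not given in the sources used here. Whole reads were recovered for 100% of values (tolerance 1e-06), giving 14600479 to 17630329 reads per library. The signal was tested as log2(value + 1) with limma 3.58.1 (R 4.3.3, trended variance, 8 group means), two-sided, with Benjamini-Hochberg adjustment over 16714 genes per contrast, after a filter of 10 in at least 2 libraries. Fold changes on that scale understate those of low genes. Where 1 library of a group was left out, the spread of the remaining one was taken from the other groups. Pair ratios used scipy 1.17.1. Scripts were tested on simulated data. Positions and lengths came from GENCODE 29, in which 97.6% of symbols matched a single gene. Alternatives were TMM factors, the same total per library, no filter, a pseudocount of 8, edgeR 4.0.16 on recovered reads (called at the same threshold), the replicate block, no Activin A libraries, a loess fit on log transcript length removed, each library left out, and, chosen after seeing the data, replicate 2 alone of both Activin A groups. All 34 members could be named, and of each other list up to 4 called genes with the largest change per contrast, plus PDK1 to PDK4, ACLY, LDHA, LDHB, ASNS, ATF4, POU5F1, NANOG and SOX2. Some genes of that rule are not reported here. The members and lists were chosen with earlier results of these data known.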

Additional observations from a re-analysis of the deposited data

Results flagged for a closer look

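The response to 2DG differed between NODAL medium and E7 in 3 members by the interaction term of the fit over all genes. IDH1 had an interaction of 0.54, SUCLA2 of 0.52 and OGDH of -0.66 on the log2 scale, with limma adjusted p = 0.047, 0.045 and 0.040. Without E7 replicate 2 these became 0.22, 0.21 and 0.21, and with the replicate number as a block 0.067, 0.064 and 0.060.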

How the results depend on the processing

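Over 476 comparisons of a single member and up to 25 alternatives, 11124 kept their side of the threshold, 218 lost a call, 388 gained one and 0 changed sign as a call. The counts of members called moved by more than 1.5 times as follows, and the cause was not tested. Most stand without the share of all genes called under the same setting, so they are no result about the members. Without the 4 Activin A libraries they were 14 for 2DG in TGFb medium, 7 in NODAL medium, 17 for TGFb in E7, 22 for NODAL in E7, 7 for NODAL under 2DG, and 9 and 15 for the TGFb and NODAL interactions. With replicate 2 alone of both Activin A groups, chosen after seeing the data, they were 14, 8 and 7 for 2DG in TGFb, Activin A and NODAL medium, 17, 21 and 22 for the 3 ligands in E7, 6 and 7 for Activin A and NODAL under 2DG, and 8, 3 and 15 for the 3 interactions. With the length trend removed they were 6 for 2DG in NODAL medium, 10 for Activin A in E7, 7 and 3 for Activin A and NODAL under 2DG, and 1 and 9 for the Activin A and NODAL interactions. Scaling to the same total gave 1 for the NODAL interaction. Leaving out each library in turn gave ranges of 9 to 25 for 2DG in E7, 1 to 9 in TGFb medium, 1 to 14 in Activin A medium, 1 to 7 in NODAL medium and 17 to 24 averaged. For the ligands in E7 they were 0 to 13 (TGFb), 2 to 14 (Activin A) and 5 to 20 (NODAL). Under 2DG they were 0 (TGFb), 1 to 9 (Activin A) and 0 to 4 (NODAL), and for the interactions 0 to 3, 0 to 7 and 0 to 13. The pair ratios that passed numbered 4 to 6. Replicate numbers showed no pairing common to the groups. Differences between replicates 1 and 2 had correlations of -0.39 to 0.24 over 28 pairs of groups, 3 of them above 0.1. Whether groups shared batches numbered in another order was not tested. With the replicate block the counts were 20 for 2DG in E7, 6 in TGFb medium, 13 for NODAL in E7, 2 for Activin A under 2DG and 0 for the NODAL interaction. Groups of 2 limit what can be detected, and relative counting error is largest for MPC1, MPC2, ME1 and PC.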
